A study of Mus musculus with 15 samples.

Results

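Thrsp, also known as Spot 14, is the gene described here, across mouse livers given the thyroid hormone triiodothyronine (T3) and their untreated controls. It was read at every array probe assigned to it, which gave 2 of the 45281 probes of the Illumina array and 1 of the 19057 genes named there. Both probes passed the filter on dim probes and are among the 15361 probes tested, so that no value of Thrsp was left out.

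The study compared liver RNA of male C57BL/6 mice aged 8 weeks in 5 groups of 3 arrays each. Mice of the acute T3 group got a single T3 dose (20 µg for each 100 g of body weight, into the peritoneum) and their livers were taken 6 h later, with baseline A as the untreated group of that experiment. Mice of the chronic T3 group got this dose daily for 14 days, with livers taken 6 h after the final dose. The T3 withdrawal mice got the same 14 doses and were then left for 10 days. Baseline B is the untreated group for chronic T3 and T3 withdrawal. All mice were kept on a 12 h light and dark cycle with free access to food. No injection is recorded for either baseline, so T3 and the injection itself cannot be told apart. Nothing in the sources used here says that each array is a separate animal. An SD given here for a group is the spread between its 3 arrays. An SE or confidence interval comes, unless stated otherwise, from a fit over all arrays. It rests on the spread within groups pooled over all groups, not only those compared. In both cases the spread may be technical in part.

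Thrsp encodes a small acidic protein of liver, fat and mammary gland that takes part in the synthesis of fatty acids from carbohydrate. Its messenger RNA in rat liver climbs within hours of a T3 dose, which made it a textbook T3 target, and it also follows carbohydrate feeding and the time of day. T3 acts through the nuclear receptors Thra and Thrb, which bind DNA together with a retinoid X receptor (Rxra, Rxrb or Rxrg) and exchange corepressors for coactivators when the hormone binds.

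The mouse gene lies on chromosome 7 at chr7:97412933-97417550 of GRCm38.p6, on the minus strand, and spans 4618 bases. The 250 bases before its start, chr7:97417551-97417800, minus strand, are shown from RefSeq because they hold the start-proximal promoter of the gene that every comparison below is about. Capitals mark the matches of 1 motif, the reversed CCAAT box ATTGG, on either strand.

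Thrsp promoter: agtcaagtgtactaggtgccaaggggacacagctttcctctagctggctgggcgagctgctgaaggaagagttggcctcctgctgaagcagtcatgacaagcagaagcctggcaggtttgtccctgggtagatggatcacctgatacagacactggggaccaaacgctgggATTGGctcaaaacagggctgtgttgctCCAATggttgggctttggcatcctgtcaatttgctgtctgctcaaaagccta

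The ATTGG motif was found 2 times, at 79 to 75 bases upstream of the start on the gene's own strand and at 52 to 48 bases upstream on the other strand. Of 32851 RefSeq promoter windows of the same length, 33.8% hold this motif and 10.1% hold it at least 2 times. The thyroid hormone response half-site AGGTCA, which 14% of the windows hold, had no match on either strand, and neither had its direct repeat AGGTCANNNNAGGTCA, held by 0.0152% of them. No match was found for the E-box CACGTG (6.02% of windows), the TATA box TATAAA (12.4%) or the D-box core TTATGTAA (0.819%). These are matches of letters in 1 window and say nothing of binding. In rat, the T3 response elements of this gene lie far upstream of such a window.

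Mean signals ran from 435 to 697 over the arrays, and 11049 to 14679 probes were detected on each, with a detection p-value under 0.01 as the limit. Chronic T3 replicates 2 and 3 were the dimmest, at a mean of 438 and 435. Thrsp in chronic T3 against baseline B, in T3 withdrawal against chronic T3 and in the chronic minus the acute effect is given with and without them. For chronic T3 minus acute T3, a range that takes in this setting is given. No 2 arrays held identical values. The liver label was borne out by the hepatocyte markers, of which 6 of 6 passed the filter, with a summed level of 127454 to 149604 over all 15 arrays. Of 10 adipocyte markers, a cell type that also makes Thrsp, only Car3 passed, which liver expresses too. Adipoq, Plin1, Fabp4, Cidec, Retn and Adig were detected on 0 of 15 arrays.

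The brighter Thrsp probe, ILMN_1256775, which the array annotation assigns to the gene's RefSeq transcript, was detected on all 15 arrays. Its deposited signal was 15649, 11998 and 14465 in the acute T3 livers, against 1445, 1517 and 1465 in the baseline A livers. It was 18507, 16361 and 20693 in the chronic T3 livers, 10671, 19064 and 17569 in the T3 withdrawal livers, and 6576, 21281 and 10438 in the baseline B livers. Baseline A stood apart from the 4 other groups, since its highest array was below the lowest of the other 12. The other untreated group, baseline B, lay among the T3 groups and held both the lowest and the highest signal of those 12 arrays.

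After background correction, quantile normalization and log2 transformation, the brighter probe averaged 13.70 ± 0.19 in acute T3 and 10.40 ± 0.15 in baseline A (SD, n = 3 each). It averaged 14.51 ± 0.39 in chronic T3, 13.67 ± 0.51 in T3 withdrawal and 13.48 ± 0.71 in baseline B (SD, n = 3 each). From low to high, the order of the means was baseline A, baseline B, T3 withdrawal, acute T3 and chronic T3. Among neighbours in that order, only baseline B against baseline A passed the test.

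The dimmer probe, ILMN_1243094, which the annotation assigns to a GenBank cDNA record of the gene, had a signal of 555, 417 and 402 in acute T3, against 110, 134 and 120 in baseline A. In baseline A it was not well above background on any of the 3 arrays. It read 372, 256 and 410 in chronic T3, 166, 295 and 304 in T3 withdrawal, and 314, 320 and 338 in baseline B, and was detected on all 12 of those and the acute arrays. Its log2 levels averaged 8.44 ± 0.20 in acute T3 and 5.19 ± 0.37 in baseline A, then 8.27 ± 0.64 in chronic T3, 7.08 ± 0.78 in T3 withdrawal and 8.04 ± 0.13 in baseline B (SD, n = 3 each). Both probes thus placed baseline A lowest. Over the 15 arrays their Pearson correlation was 0.89, and that of their deviations from the group means was 0.56, both given as a description. The files hold no probe sequence, so which part of the transcript each probe reads was not analysed here.

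**Figure D1:**
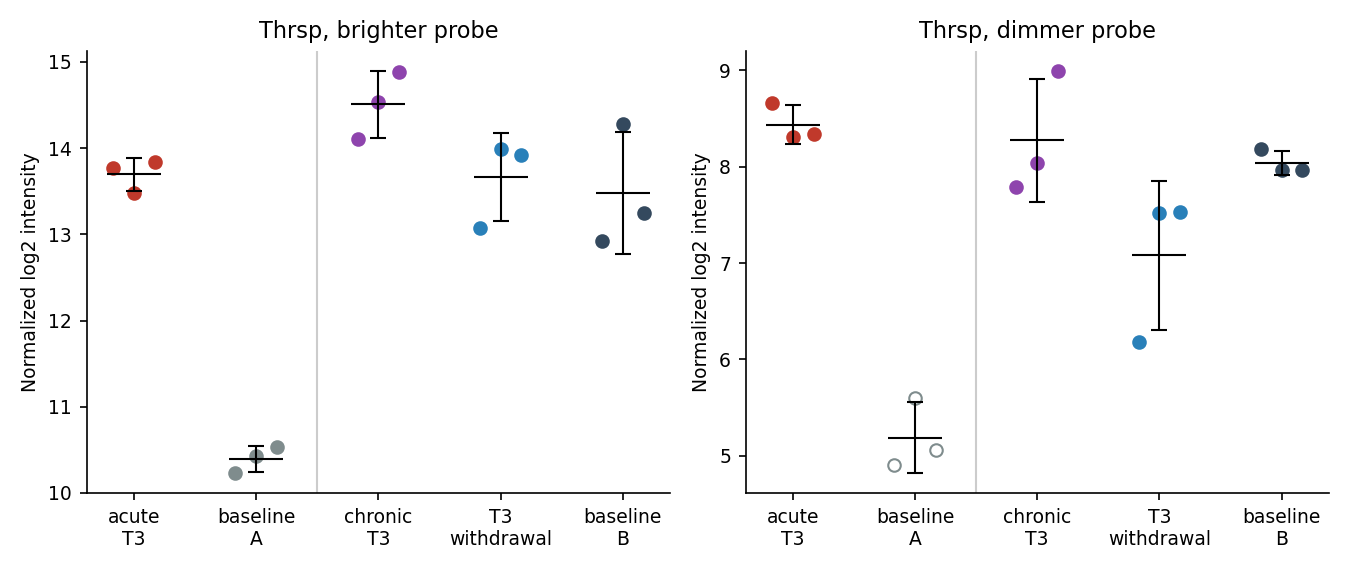
Log2 level of the 2 Thrsp probes on each array (vertical axis, background-corrected and quantile-normalized log2 signal), by group, with the mean and SD of 3 arrays; open symbols are arrays on which the probe was not detected. The 3 baseline A arrays of the brighter probe lie between 10.23 and 10.53, below all 12 others, and those of baseline B spread between 12.92 and 14.27.

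Acute T3 against baseline A asks what 1 injection did within 6 h. The brighter probe was 9.84-fold higher in acute T3 than in baseline A. On the log2 scale the difference was 3.30 ± 0.33 (SE), with a 95% confidence interval of 2.59 to 4.004 and an adjusted p of 0.000533 from limma with Benjamini-Hochberg adjustment over all 15361 probes. The lowest acute array, at 13.48, was above the highest baseline A array, at 10.53. In this comparison 1.54% of the probes tested were called, 1.12% as higher and 0.423% as lower, and only 2 probes had a larger increase than the brighter Thrsp probe. The dimmer probe was higher in acute T3 too, by 3.25 ± 0.36 on the log2 scale as measured (adjusted p = 0.000637). Since baseline A was at background, its fold depends on how background is handled. On the background-corrected scale it was at least 5.41-fold higher in acute T3, taken against the lowest detected signal of the baseline A arrays, whereas the deposited signals, background included, had a ratio of means of 3.78. Over 10 processing alternatives the log2 difference ran from 1.88 to 3.53, and all 10 called it. The order of the acute arrays differed between the probes, with replicate 3 highest on the brighter and replicate 1 on the dimmer. Baseline B, also untreated, was 8.49-fold above baseline A on the brighter probe. What part of the acute difference comes from a low baseline A was not tested.

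The comparison of chronic T3 with baseline B addresses treatment over 14 days. The brighter probe was 2.04-fold higher in chronic T3, a log2 difference of 1.03 ± 0.33 (SE; 95% confidence interval 0.32 to 1.73, adjusted p = 0.0441, limma), in a comparison where 18.8% of all probes were called, 9.73% as higher and 9.05% as lower. The groups overlapped: chronic T3 replicate 1, at 14.11, lay below baseline B replicate 2, at 14.27. As deposited, before normalization, the mean signal was 1.45 times as high in chronic T3 as in baseline B. The dimmer probe did not pass (log2 difference 0.24 ± 0.36, 95% confidence interval -0.54 to 1.02, adjusted p = 0.689). The call on the brighter probe was lost without the 2 dimmest arrays, both of chronic T3 (log2 difference 0.62, adjusted p = 0.433), without either of them alone (adjusted p = 0.105 and 0.124) and without baseline B replicate 1 or 3 (adjusted p = 0.161 and 0.136). It was also lost with the arrays scaled by their median instead of by quantiles (log2 difference 0.85, adjusted p = 0.138).

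**Figure D2:**
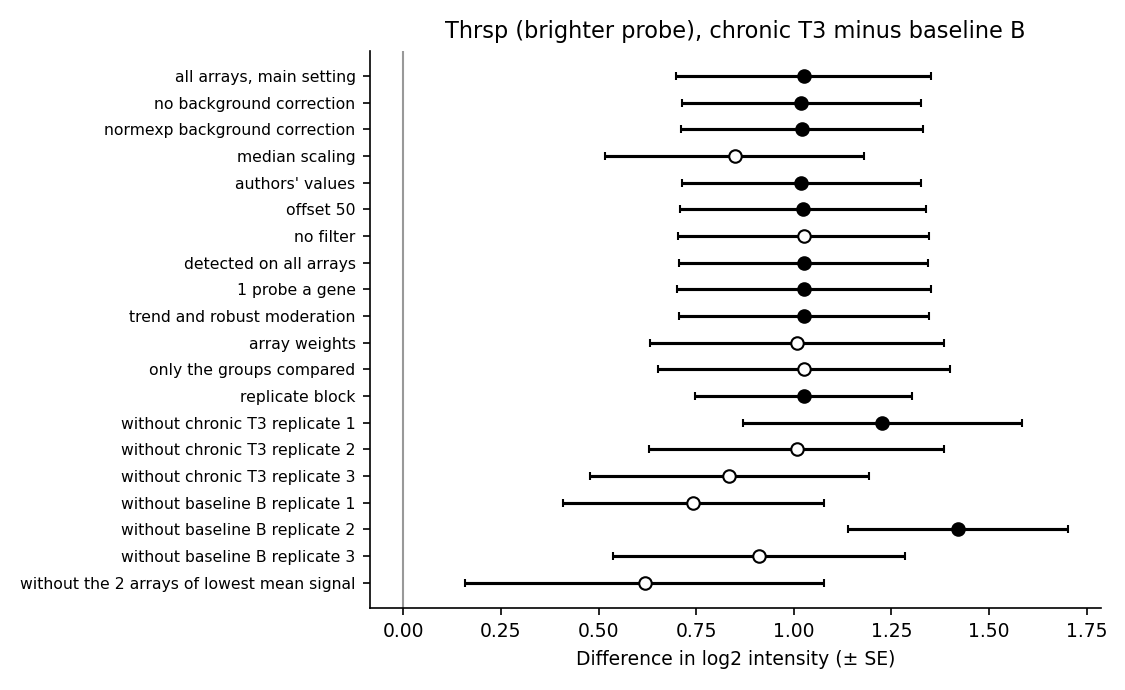
Difference of the brighter Thrsp probe between chronic T3 and baseline B (log2, horizontal axis, with SE) under each processing alternative and without each array; filled symbols passed the adjusted p threshold of 0.05 and open ones did not. All estimates are above 0, between 0.62 and 1.42, and the calls come and go with the setting.

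T3 withdrawal against baseline B asks what was left 10 days after the last of 14 injections. Neither probe passed the test. The brighter probe differed by 0.18 ± 0.33 on the log2 scale (SE; 95% confidence interval -0.52 to 0.89, adjusted p = 0.947, limma), and its arrays overlapped with those of baseline B. The dimmer probe was lower in all 3 withdrawal arrays than in all 3 baseline B arrays, with a log2 difference of -0.96 ± 0.36 and a 95% confidence interval of -1.74 to -0.18, but its adjusted p was 0.575. In this comparison 0.00651% of the probes, 1 of 15361, were called. The intervals leave room for a residual difference of Thrsp in either direction on the brighter probe.

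T3 withdrawal against chronic T3 asks whether the chronic level was kept. After normalization the brighter probe was lower in all 3 withdrawal arrays (13.08, 13.99 and 13.92) than in all 3 chronic T3 arrays (14.11, 14.54 and 14.88). As deposited, its signals overlapped between the 2 groups, with a ratio of means, withdrawal to chronic, of 0.85. The log2 difference was -0.84 ± 0.33 (SE; 95% confidence interval -1.55 to -0.14) and did not pass the adjusted test (adjusted p = 0.111, limma), nor did the -0.44 left without the 2 dimmest arrays (adjusted p = 0.670). The dimmer probe fell by 1.19 ± 0.36 on the log2 scale (adjusted p = 0.0435), where 13.8% of all probes were called, 7.49% as higher and 6.33% as lower. That call was lost without chronic T3 replicate 2 or 3, without T3 withdrawal replicate 1, and under 5 of 11 processing alternatives: median scaling, no filter, array weights, only the groups compared, and leaving out both of the 2 dimmest arrays. Over the 11 the adjusted p ran from 0.0288 to 0.426. The deposited signals of the dimmer probe overlapped too, with a ratio of means of 0.74.

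The acute and chronic effects were of different size. The chronic effect minus the acute effect was -2.27 ± 0.46 on the log2 scale for the brighter probe (SE; 95% confidence interval -3.27 to -1.28, adjusted p = 0.0156, limma) and -3.01 ± 0.51 for the dimmer one (adjusted p = 0.00588), with the baseline A level of the dimmer probe not well above background, so that the size of its difference is not settled (-1.68 without background correction). In this comparison 5.08% of all probes were called, 2.68% with a chronic effect above the acute one and 2.41% with one below it. Without the 2 dimmest arrays the difference was -2.67 for the brighter probe (adjusted p = 0.0169) and -3.55 for the dimmer (adjusted p = 0.00439). Each effect is set against its own baseline, so a difference between the baselines enters the difference of the effects. The T3 groups themselves were closer: chronic T3 minus acute T3 was 0.81 ± 0.33 for the brighter probe (adjusted p = 0.122), with no overlap of the arrays in a comparison where 11.5% of the probes were called, and -0.16 ± 0.36 for the dimmer (adjusted p = 0.794). Over 13 processing alternatives, leaving out the 2 dimmest arrays among them, it ran from 0.37 to 0.81 for the brighter probe. For the dimmer it ran from -0.65 to -0.12 over 11, and none of the alternatives called either probe.

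**Figure D3:**
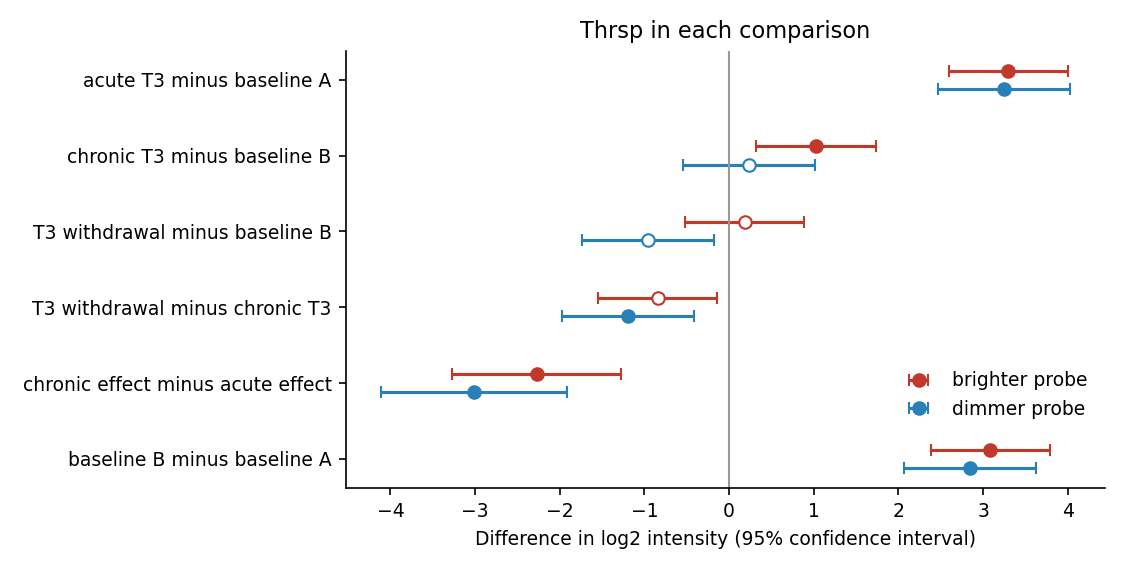
Differences of the 2 Thrsp probes in each comparison (log2, with 95% confidence intervals from the limma fit); filled symbols passed the adjusted p threshold of 0.05 and open ones did not. The acute T3 effect (3.30 for the brighter probe) and baseline B against baseline A (3.09) are the largest, and the chronic effect is 1.03.

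The 2 untreated baselines differed in Thrsp nearly as much as acute T3 differed from its baseline. The brighter probe was 8.49-fold higher in baseline B, a log2 difference of 3.09 ± 0.33 (SE; 95% confidence interval 2.38 to 3.79, adjusted p = 0.000462, limma). The lowest baseline B array, at 12.92, was above the highest baseline A array, at 10.53. Among all probes 10.7% were called, 3.35% as higher and 7.32% as lower in baseline B, and only 4 probes had a larger increase. The dimmer probe was 2.85 ± 0.36 higher in baseline B on the log2 scale as measured (adjusted p = 0.00157), at least 4.09-fold on the background-corrected scale. Its deposited signals had a ratio of means of 2.67, and the log2 difference ran from 1.57 to 3.11 over 10 processing alternatives, all of which called it. The acute comparison and the baseline comparison share the 3 baseline A arrays. Both groups are untreated mice of the same labelled strain, sex and age, and they belong to different experiments, so that what else differed between them and the experiment cannot be told apart.

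Set against the other neighbours in the order of levels, acute T3 minus T3 withdrawal was 0.03 ± 0.33 for the brighter probe (adjusted p = 0.967), and 1.36 ± 0.36 for the dimmer one (adjusted p = 0.0707), where 1.94% of all probes were called. The dimmer probe's difference passed under 6 of 10 processing alternatives, with an adjusted p of 0.135 or less, and in 0 of 6 fits that left out 1 array. Without T3 withdrawal replicate 1 the difference of the brighter probe was -0.264, so that the order of these 2 groups rests on single arrays.

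Thrsp varied between arrays of 1 group more than most probes of its brightness. Its pooled SD within groups was 0.44 log2 units for the brighter probe, larger than that of 94.8% of the 809 probes within 1 log2 unit of its mean, whose median was 0.16. For the dimmer probe it was 0.49, larger than 86.8% of 5170 such probes (median 0.29). In baseline B the brighter probe ran from 12.92 to 14.27, a 3.24-fold range of deposited signal, while the dimmer probe stayed between 7.96 and 8.18. In baseline A the deposited signal of the brighter probe ranged 1.05-fold.

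Other genes known to respond to T3 in liver were read from a list of 19, of which 14 had a tested probe. In acute T3, 5 of the 14 rose and none fell (1.12% and 0.423% of all probes), and the median difference of the 14 was 0.62, against 0.0092 over all probes. Dio1, the deiodinase that makes and clears T3, rose by 1.44 ± 0.27 (adjusted p = 0.0213), and Gpd2, the mitochondrial glycerol phosphate dehydrogenase, by 1.60 ± 0.28 (adjusted p = 0.0137). Idh3a, a subunit of the citric acid cycle's isocitrate dehydrogenase, rose by 1.89 ± 0.21 (adjusted p = 0.000637). Bcl3, a nuclear IκB family protein, rose by 1.46 ± 0.28, and Cyp7a1, which starts the main route of bile acid synthesis, by 1.56 ± 0.33. These are log2 differences with SE from the same fit, and only the call of Idh3a held without each of the 6 arrays in turn. The count fell to 1 without acute T3 replicate 3 or baseline A replicate 1.

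In chronic T3, 6 of the 14 rose and none fell (9.73% and 9.05% of all probes), with a median of 0.54 (0.013 over all probes). Dio1 rose by 1.54 ± 0.27 and Gpd2 by 1.57 ± 0.28, next to the 1.03 ± 0.33 of Thrsp. Idh3a, Bcl3 and Cyp7a1 rose again. Hr, a corepressor gene that T3 induces in rat brain, was at least 3.11-fold higher in chronic T3 on the background-corrected scale (adjusted p = 0.000410). Its baseline B arrays were not well above background. Over the processing alternatives and left-out arrays its log2 difference ran from 1.57 to 3.60. The count of rises was 5 or 6 when single arrays were left out, and 4 without the 2 dimmest. There the calls of Dio1 and Bcl3 were lost, as was that of Thrsp. In T3 withdrawal none of the 14 passed against baseline B, where 0.00651% of all probes were called, 0% as lower. Against chronic T3, 5 (Dio1, Gpd2, Hr, Cyp7a1 and Idh3a) fell and none rose, beside 6.33% and 7.49% of all probes. The count of falls was 3 with median scaling and 3 without T3 withdrawal replicate 1.

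Dio1 gave the other pattern between the baselines. Its log2 level was 12.75, 12.30 and 12.89 in acute T3, against 11.07, 11.34 and 11.20 in baseline A. It was 13.05, 13.35 and 13.55 in chronic T3 and 10.24, 11.58 and 11.09 in T3 withdrawal, against 11.62, 11.87 and 11.84 in baseline B. Each T3 group given its last dose 6 h before lay above both baselines without overlap. Baseline B minus baseline A was 0.57 ± 0.27 for Dio1 (adjusted p = 0.168), -0.07 ± 0.28 for Gpd2 (adjusted p = 0.893) and 0.60 ± 0.21 for Idh3a (adjusted p = 0.0791), beside 3.09 ± 0.33 for Thrsp. Among the 14, Fasn rose and Atp2a2 fell between the baselines (3.35% and 7.32% of all probes), and both calls were lost without single arrays. Only Hr of the 14 had chronic and acute effects that differed past the threshold, with the chronic one higher (2.68% of all probes). It lost that call with median scaling, without the filter and without 5 of the 12 arrays in turn.

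**Figure D4:**
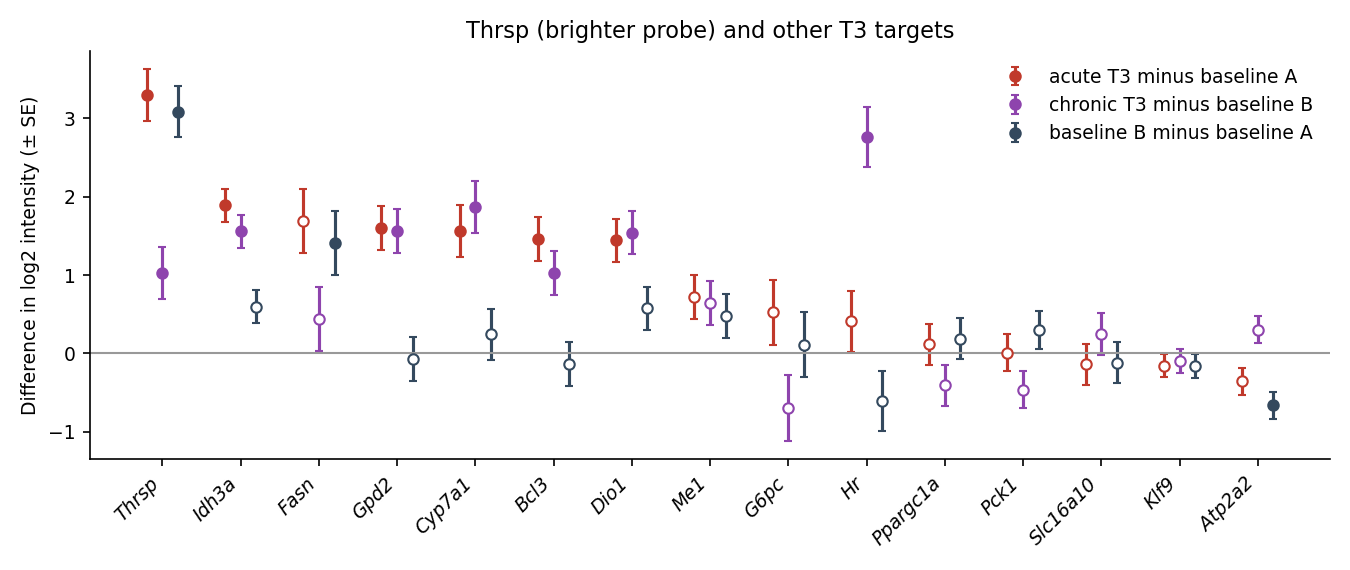
Differences (log2, with SE) of Thrsp and of the other genes known to respond to T3. The comparisons are acute T3 against baseline A, chronic T3 against baseline B and baseline B against baseline A. Filled symbols passed the adjusted p threshold of 0.05, and values are as measured, also where a probe was not well above background. Such cases include Hr in baseline B, and Fasn in baseline A replicates 2 and 3 and baseline B replicate 3. Thrsp has the largest acute difference (3.30) and the largest difference between baselines (3.09) of the genes drawn, and Dio1, Gpd2 and Idh3a lie between 1.44 and 1.89 in both T3 comparisons.

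Mid1ip1, the paralog of Thrsp, encodes a partner of the Thrsp protein that promotes the polymerization of acetyl-CoA carboxylase. Its log2 level was 10.64, 10.25 and 10.54 in acute T3, against 9.83, 9.95 and 9.68 in baseline A, a difference of 0.66 ± 0.19 that did not pass (adjusted p = 0.109). It was 9.71, 10.26 and 10.48 in chronic T3 and 10.97, 10.99 and 10.92 in T3 withdrawal, against 10.66, 10.83 and 10.40 in baseline B. The chronic effect of -0.48 ± 0.19 did not pass (adjusted p = 0.0932), whereas T3 withdrawal was 0.81 ± 0.19 above chronic T3 (adjusted p = 0.0127). Baseline B was 0.81 ± 0.19 above baseline A (adjusted p = 0.0211), a call lost with median scaling and without 4 of the 6 arrays in turn. The chronic effect minus the acute effect was -1.14 ± 0.26 (adjusted p = 0.0283), lost without 6 of the 12 arrays in turn.

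Of 16 genes of hormone receptors and their partners, 9 were tested. Neither receptor could be followed, since Thra and Thrb were detected on 0 of 15 arrays by the 1 probe each has. Tbl1xr1, a factor of corepressor exchange, rose in acute T3 by 0.51 ± 0.11 (adjusted p = 0.0373), and the oxysterol receptor Nr1h3 rose in chronic T3 by 0.60 ± 0.18 (adjusted p = 0.0328), and both calls were lost with median scaling and without 4 or 5 of 6 arrays in turn. No other member of this list passed in any of the 6 comparisons, the retinoid X receptors Rxra, Rxrb and Rxrg among them.

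Of 33 genes of fatty acid and triglyceride synthesis and its regulators, 28 were tested, Mid1ip1 and Fasn being counted here too. In acute T3 none passed (1.54% of all probes did), with a median difference of 0.16 (0.0092 over all probes), and 3 rose with median scaling. Fasn, the fatty acid synthase, had a log2 level of 7.57, 7.28 and 7.52 in acute T3, against 6.30, 5.40 and 5.60 in baseline A. The difference was 1.69 ± 0.41 (adjusted p = 0.0614). In baseline A its probe was not detected on replicates 2 and 3, so that the size of this difference is not settled. In chronic T3, 4 of the 28 rose and 3 fell, shares near those of all probes (9.73% higher and 9.05% lower). The largest rise was that of Pnpla3, a lipase-like protein of lipid droplets, by 4.35 ± 0.64 (adjusted p = 0.000612). Srebf1, the transcription factor that drives fatty acid synthesis genes, fell by 1.23 ± 0.20 (adjusted p = 0.00106), and Pklr, the liver pyruvate kinase, fell by 1.87 ± 0.36 (adjusted p = 0.00359), and both calls held without each of the 6 arrays in turn. Median scaling gave 2 rises and 2 falls, 2 rises were left without baseline B replicate 2 or 3, and without the 2 dimmest arrays there was 1 rise and 4 falls.

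Against chronic T3, 5 of these 28 rose and 3 fell in T3 withdrawal (7.49% and 6.33% of all probes). Srebf1 was higher by 1.53 ± 0.20 (adjusted p = 0.000271). Between the baselines, 8 were higher and 1 was lower in baseline B (3.35% and 7.32% of all probes). The median of the 28 was 0.15 (-0.044 over all probes). Pklr was 2.15 ± 0.36 higher in baseline B (adjusted p = 0.00557) and Aacs, an acetoacetate-activating enzyme, 1.81 ± 0.29 (adjusted p = 0.00447). Srebf1 was 0.99 ± 0.20 higher (adjusted p = 0.0116) and Fasn 1.40 ± 0.41 (adjusted p = 0.0454). In baseline A, Fasn was detected on replicate 1 only and Pklr on replicate 2 only, so that the sizes of their differences are not settled. In baseline B, Fasn was not detected on replicate 3. Its call was also lost without background correction, with the authors' values, with median scaling and without the filter. Mlxipl, the carbohydrate response factor ChREBP, fell by 0.94 in baseline B (adjusted p = 0.0422). With the replicate number as a block, the calls of Fasn (adjusted p = 0.0541), Mlxipl (adjusted p = 0.0606) and Gpam, an enzyme of triglyceride synthesis (adjusted p = 0.0674), were lost, which left 6 higher and 0 lower. This comparison depends on the scaling: with median scaling 4 were higher and 3 lower and the list's median turned to -0.06. Without baseline A replicate 1, baseline A replicate 3 or baseline B replicate 2, 3 were higher. In the chronic effect minus the acute effect, 4 were lower (Srebf1, Pklr, Aacs and Mid1ip1) and none higher, beside 2.41% and 2.68% of all probes. Only the call of Srebf1 (-1.74 ± 0.28, adjusted p = 0.00386) held without each of the 12 arrays in turn.

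Genes of the circadian clock moved beside Thrsp in the comparisons that hold baseline A. Of 20, 14 were tested. In acute T3, 4 of the 14 rose and 2 fell, with a median of 0.79 (0.0092 over all probes, of which 1.12% were higher and 0.423% lower). Dbp, a clock output factor that peaks in the light phase, rose by 3.61 ± 0.60 (adjusted p = 0.0103) and Arntl, the core activator of the clock, fell by 2.25 ± 0.30 (adjusted p = 0.00254). The count of rises was 0 without acute T3 replicate 3 or baseline A replicate 1, and 8 without baseline A replicate 3. In baseline B against baseline A, 8 of the 14 rose and 2 fell, with a median of 1.06 (-0.044 over all probes, of which 3.35% were higher and 7.32% lower), and 7 to 9 rose when single arrays were left out. Dbp was 4.16 ± 0.60 higher in baseline B (adjusted p = 0.00265) and Usp2, a clock-controlled deubiquitinase, 3.999 ± 0.43 higher (adjusted p = 0.000502). In chronic T3 none rose and 2 fell (9.73% and 9.05% of all probes). In T3 withdrawal against baseline B none passed, where 0.00651% of all probes did.

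The log2 level of Dbp was 12.20, 12.85 and 12.57 in acute T3, against 7.76, 8.06 and 10.99 in baseline A. It was 12.74, 12.66 and 12.69 in chronic T3 and 13.58, 13.23 and 13.03 in T3 withdrawal, against 13.34, 12.73 and 13.21 in baseline B. Baseline A was again lowest without overlap, but its replicate 3 lay well above replicates 1 and 2, which the brighter Thrsp probe did not show (10.23, 10.43 and 10.53). The hour of death is not among the labels, and the part of clock time in the Thrsp values was not tested.

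Of 16 genes that mark fasting or feeding, 10 were tested. None passed in acute T3, a count near the share of all probes called there, 1.54%. Fgf21, a hormone of liver that fasting induces, rose by 3.06 ± 0.68 in chronic T3 (adjusted p = 0.00787), a call lost with array weights and without the 2 dimmest arrays. Fgf21 fell by 2.32 ± 0.68 in baseline B against baseline A (adjusted p = 0.0464), a call lost without 5 of the 6 arrays in turn. No other member passed in either comparison, where 18.8% and 10.7% of all probes were called. The part of feeding state in the Thrsp values was not tested.

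Macrophage markers moved with chronic T3. Of 8, 7 were tested, and all 7 rose in chronic T3 with a median of 1.56 (9.73% of all probes were higher). All 7 fell in T3 withdrawal against chronic T3 (6.33% of all probes were lower). None passed in acute T3, in T3 withdrawal against baseline B or between the baselines. Their summed level was 8073 to 14815 in chronic T3 and 3249 to 3314 in T3 withdrawal, against 3027 to 4588 in baseline B. Of other cell type markers, the endothelial genes Cdh5 (0.83 ± 0.15, adjusted p = 0.00234) and Lyve1 (1.34 ± 0.39, adjusted p = 0.0311, lost with median scaling) and the pancreatic acinar gene Cela2a (2.81 ± 0.24, adjusted p = 9.35e-06) also rose in chronic T3. The red blood cell gene Alas2 (-1.74 ± 0.31, adjusted p = 0.00226), Car3 (-2.66 ± 0.70, adjusted p = 0.0192) and the acinar gene Amy2a5 (-0.40 ± 0.10, adjusted p = 0.0183) fell. The call of Amy2a5 was lost with median scaling and without the 2 dimmest arrays, and that of Car3 without 3 of 6 arrays in turn. Of 5 endothelial markers tested, 3 did not pass. The other red blood cell marker tested, Hba-a1, did not pass either. The summed level of these 2 was 13763 to 22797 in chronic T3, against 10288 to 17204 in baseline B. In whole liver, fewer cells of a type and less RNA per cell cannot be told apart, and the part of cell makeup in the chronic Thrsp value was not tested. Of the hepatocyte markers, albumin (Alb) fell by 1.43 in chronic T3 (adjusted p = 6.62e-05) and by 0.86 in acute T3 (adjusted p = 0.0175, lost with median scaling), and no other of the 6 passed there.

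The genes next to Thrsp on chromosome 7 did not share the size of its acute difference or of its difference between the baselines. On the side of lower coordinates lie Ndufc2, a subunit of respiratory complex I (chr7:97400003-97407800), and Alg8, a glycosyltransferase of protein glycosylation (chr7:97371567-97392159). On the other side lie Kctd14 (chr7:97436380-97459557) and Ints4, a subunit of the Integrator complex (chr7:97480951-97541398), all in GRCm38.p6. None of the 4 passed in any of the 6 comparisons, where 0.00651% to 18.8% of all probes were called. A count of 0 among 4 genes is near those shares. Their acute differences were 0.11, -0.16, 0.50 and -0.01 in that order, beside 3.30 for the brighter Thrsp probe. The largest difference between the baselines was 0.67 ± 0.29 for Ndufc2 (adjusted p = 0.135), beside 3.09 for Thrsp.

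The genes whose pattern over the 15 arrays was most like that of the brighter Thrsp probe were Hsbp1l1 (Pearson r = 0.95), Rpp14 (0.95), Slc46a3 (0.93), Thoc7 (0.92), Rnf14 (0.92), Dgat2 (0.92), Msmo1 (0.90), Rrm2 (0.90), Cpsf4l (0.90) and Tor1a (0.90). Of 8975 other named genes, 72 had an r above 0.8 and 78 one below -0.8. The points share their group, and baseline A lies far from the rest, so r was also taken over the 12 other arrays. There Hsbp1l1 had 0.88, Rpp14 0.80 and Cpsf4l 0.54, and only Hsbp1l1 and Rrm2 of these 10 genes were among the 10 likest, and the other 8 were not. The likest over the 12 arrays were Fam220a (0.90), Ltc4s (0.90) and Cad (0.89), named after their values were seen. With median scaling Hsbp1l1 had 0.92 and Slc46a3 0.95, but Rpp14 0.68, Rnf14 0.50 and Thoc7 0.32.

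Hsbp1l1, a paralog of a heat shock factor binding protein, had a log2 level of 7.04, 7.09 and 7.56 in acute T3, against 5.93, 6.09 and 5.85 in baseline A. It had 7.19, 7.67 and 7.98 in chronic T3 and 6.91, 7.59 and 7.32 in T3 withdrawal, against 6.96, 7.66 and 6.67 in baseline B. As with Thrsp, replicate 2 of baseline B was that group's highest array and replicate 1 of T3 withdrawal the lowest of its group. Hsbp1l1 was picked for its likeness over these same arrays, so this order describes that choice and is no further support. The smallest correlations were those of Ndrg1 (-0.94), Rab32, Evi5, Gstm4 and Efnb1 (-0.91 each). With median scaling they were -0.85, -0.68, -0.60, -0.70 and -0.64 in that order. Ndrg1, a stress-responsive gene, had 7.60, 7.95 and 7.12 in acute T3, against 9.60, 9.12 and 8.91 in baseline A, so that its baseline A arrays were the highest. For the deviations from the group means, which leave out the differences between groups, the most like genes were Trim41 (0.90), Gid4 (0.87), Dnajc14 (0.85), Gja4 (0.85) and Hsbp1l1 (0.84). With median scaling these values were 0.64, 0.86, 0.77, 0.80 and 0.81 in that order. Gid4 was not detected on any chronic T3 array.

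**Figure D5:**
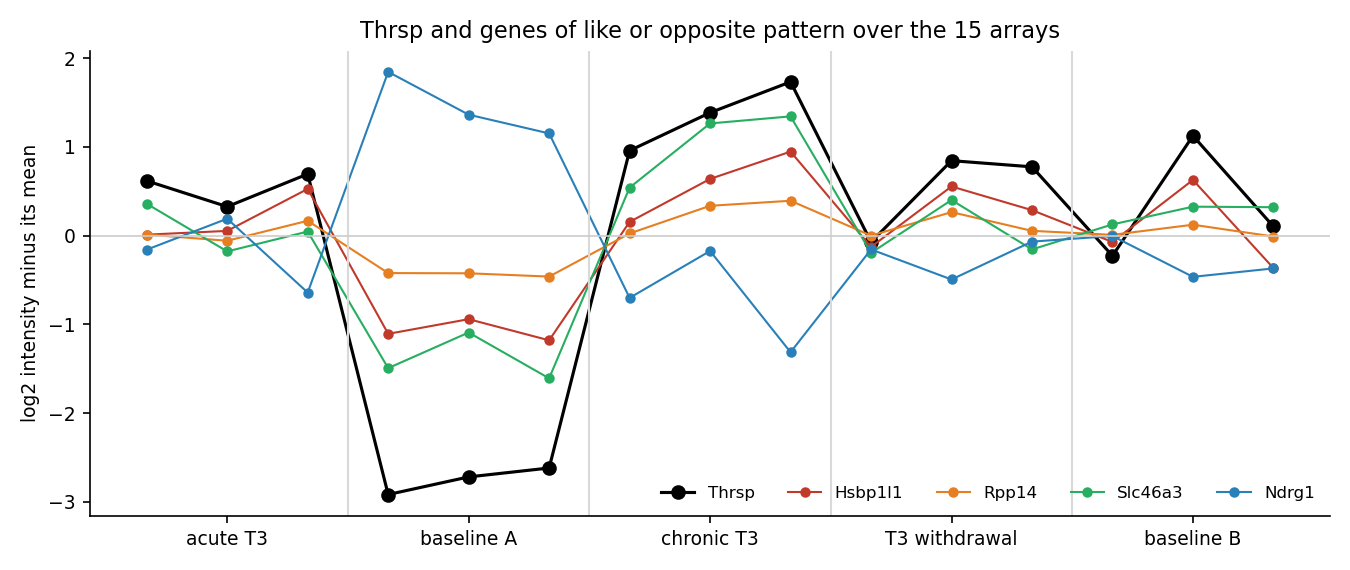
Log2 level minus each gene's own mean over the 15 arrays (vertical axis) for Thrsp, for the genes most like it (Hsbp1l1, Rpp14 and Slc46a3) and for the least like (Ndrg1), array by array. Baseline A is the lowest group for Thrsp and its 3 likest genes and the highest for Ndrg1.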

How the data were processed

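Liver RNA of 15 samples in 5 groups of 3 was read on Illumina arrays. The deposited signal file holds, per the file headers, an intensity for each probe and array, not normalized, with a detection p-value beside it. A deposited value table holds an intensity that matched the quantile-normalized signals and served as an alternative. Partek 6.6 is named in the submitters' processing notes, with no role, and no source used here gives the background handling.

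The neqc function of limma (version 3.58.1, under R 4.3.3) corrected the signals for background from the detection p-values, added an offset of 16, normalized by quantiles and took log2. Probes with a detection p under 0.01 on at least 3 arrays were kept, 15361 in all. Genes came from GEO's platform annotation, updated through RefSeq: 34885 probes had 1 gene, 18 several and 10378 none. Each gene other than Thrsp was read from its brightest tested probe, which gave 8976 genes. 1 fit over all arrays had a mean for each group, with 10 residual and 13.1 moderated degrees of freedom, and its 2-sided p-values were adjusted by Benjamini-Hochberg over all probes tested, with 0.05 as the threshold. A permutation test of 3 against 3 arrays cannot go below p = 0.1. Where a probe was detected on no array of a group, the fold is a lower bound, taken against the dimmest detected probe on each such array, and spots at the top of the scale were kept. The script was tested on simulated data.

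Replicate numbers are shared by the groups. Deviations of same-numbered arrays correlated at 0.143, 0.327 and 0.227 between baselines B and A, and each other comparison had a pair at or under 0.0399. By the rule used, this pairs the arrays of the baselines only, and the blocked fit changed no Thrsp call.

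Thrsp and all lists were chosen with earlier results of these data known. Named genes are Thrsp, the likest and least like genes over 15 arrays (predicted symbols left out), called members of the first 4 lists, up to 4 members of each other list, and the 2 nearest genes on each side of Thrsp. The alternatives were other background corrections, scalings, offsets, filters, 1 probe per gene, moderation, array weights, only the groups compared, a replicate block and each array left out. Leaving out the 2 dimmest arrays, the likeness over 12 arrays and leaving out arrays for the lists were chosen after seeing the data.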

Additional observations from a re-analysis of the deposited data

Results flagged for a closer look

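The difference between the chronic T3 effect and the acute T3 effect on Thrsp passed the test of the difference itself on the brighter probe, and on the dimmer one with a limit. It was -2.27 on the log2 scale for the brighter probe (adjusted p = 0.0156, limma) and -3.01 for the dimmer one (adjusted p = 0.00588). The dimmer probe was detected on 0 of 3 baseline A arrays, so that its size is not settled: over 11 processing alternatives it ran from -3.55 to -1.68. The difference of each probe stayed past the threshold without each of the 12 arrays in turn. The chronic effect is set against baseline B and the acute effect against baseline A, and baseline B was itself 3.09 higher than baseline A on the brighter probe, so a change of the T3 response and a difference of the baselines cannot be told apart in it. The groups of 3 arrays are too small for a test of single outlying arrays.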

How the results depend on the processing

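Over 12 processing alternatives, the acute T3 effect on the brighter Thrsp probe kept its call (3.22 to 3.48), as did baseline B against baseline A (2.93 to 3.24), and over 13 so did the chronic minus the acute effect (-2.67 to -2.20). Without single arrays these ran from 3.22 to 3.41, from 2.68 to 3.36 and from -2.55 to -1.87, all past the threshold. The chronic effect lost its call with median scaling (0.849), without the filter (1.03), with array weights (1.01), with only the groups compared (1.03) and without the 2 dimmest arrays (0.618), and ran from 0.742 to 1.42 without single arrays. T3 withdrawal against baseline B ran from -0.0985 (without baseline B replicate 1, reversed) to 0.577. Acute T3 minus T3 withdrawal ran from -0.264 to 0.194 and turned sign without acute T3 replicate 1 (-0.0058), acute T3 replicate 3 (-0.0429) and T3 withdrawal replicate 1 (-0.264). On the dimmer probe the chronic effect ran from -0.124 (without chronic T3 replicate 3) to 0.482 without single arrays and was -0.249 without the 2 dimmest, and chronic T3 minus acute T3 ran from -0.526 to 0.0785 (without chronic T3 replicate 1). None of these reversed values was called, and the cause was not tested.

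The number of probes called moved more. For acute T3 it was 237, then 368 without background correction and with the authors' values, 157 without the filter, 376 with trended and robust moderation, 3576 with array weights, 63 with only the groups compared and 59 to 200 without single arrays. For chronic T3 it was 2884, then 1267 with median scaling, 1060 with only the groups compared, 1790 without the 2 dimmest arrays and 1863 to 2862 without single arrays. For T3 withdrawal against baseline B it was 1, then 0 for probes detected on all arrays and with only the groups compared, and 1 to 3 without single arrays. For T3 withdrawal against chronic T3 it was 2124, then 962 with only the groups compared, 1365 without the 2 dimmest arrays and 1328 to 1868 without single arrays. For the chronic minus the acute effect it was 781, then 285 with median scaling, 473 without the filter, 1775 with array weights, 495 with only the groups compared and 340 to 1096 without single arrays. For baseline B against baseline A it was 1639, then 929 without the filter, 782 with 1 probe per gene, 5651 with array weights, 151 with only the groups compared and 246 (without baseline A replicate 1) to 3873 (without baseline A replicate 2) without single arrays.

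With the replicate number as a block, the Thrsp difference was 3.30 in acute T3, 1.03 in chronic T3 (adjusted p = 0.0282) and 3.09 between the baselines (adjusted p = 0.000537), and no Thrsp call changed. Median scaling moved the median of all probes by 0.138 for acute T3, 0.394 for T3 withdrawal against baseline B, 0.347 for T3 withdrawal against chronic T3, -0.108 for the chronic minus the acute effect and -0.330 for baseline B against baseline A. Precision is limited by 3 arrays in each group, and the dimmer probe by its closeness to background in baseline A.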
